A study of Mus musculus with 78 samples.

Results

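Fasting overnight was compared with no treatment in the livers of adult female mice. The 10 livers were chosen by their sample titles, 5 fasted and 5 untreated, out of 78 in the series, and each was measured on its own Affymetrix mouse array. All 10 mice were Npc1+/+ females of the Balb/cJ strain, 12 weeks old, housed with free access to water and chow before the experiment and given no oligonucleotide. By their labels the fasted mice differed from the untreated mice only in the overnight fast, and the samples are biological replicates. The p-values rest on the spread among mice within groups, estimated over all 30 arrays of 12 weeks. These include mice given a control or Npc1 antisense oligonucleotide, with or without NAC treatment. The labels give neither the length of the fast in hours nor the hour of collection. They also do not say which livers were frozen on dry ice and which were kept in RNAlater. The rest of the series covers mice without the lysosomal cholesterol carrier Npc1 and their wild-type controls, in age groups between 1 and 11 weeks. It also covers mice aged 12 weeks that were treated with antisense oligonucleotides, some of them also with NAC. The mice of 11 weeks belong to the BALB/cNctr-Npc1m1N/J line and are used below for a comparison with fasting.

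In the fed state the liver turns glucose into fatty acids and makes cholesterol, both driven by insulin and by the sterol regulatory element binding proteins (SREBPs). Without food, fatty acids released from adipose tissue reach the hepatocyte, where they are oxidised in mitochondria, peroxisomes and microsomes and partly turned into ketone bodies. The nuclear receptor PPAR-alpha raises the genes of that programme, and glucagon, glucocorticoids and the FOXO factors raise the genes that release glucose. SREBP activity falls at the same time, and with it the transcription of lipid synthesis enzymes.

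Levels are given as deposited log2 values, so that 1 unit is a doubling. The 10 array medians ran from 5.46 to 5.55, and no pair of the arrays held identical values. Hepatocyte markers such as albumin and transthyretin had a mean level of 12.61 to 12.72 in the untreated and of 12.63 to 12.70 in the fasted mice, and 0 of their 10 tested members passed the test. None of the 11 other marker lists held a called gene. The 13 tested markers of Kupffer cells and other macrophages were all lower on average in the fasted mice, by a median of 0.13, with a list level of 7.58 to 8.10 in untreated and 7.41 to 7.93 in fasted livers. Untreated mouse 4 had the highest macrophage level of the 10 livers and fasted mouse 4 the lowest. The 7 tested pancreas markers ranged from 5.55 to 6.46 in untreated and from 5.42 to 6.97 in fasted livers, with fasted mouse 3 highest. The livers were measured as bulk tissue, in which fewer cells of a type and less RNA per cell cannot be told apart, and the part of these markers in the results was not tested.

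Of 11900 genes tested, 63 passed an adjusted p of 0.05 (0.529%), by limma with Benjamini-Hochberg adjustment. They comprised 25 genes that rose in the fasted mice (0.21%) and 38 that fell (0.319%), and 1055 genes had an unadjusted p under 0.05. Centring each array on its median gave 59 genes with a more even split, 30 higher and 29 lower. The median difference of all tested genes was -0.023. The fasted and untreated mice did not overlap for 183 genes that lay higher in all fasted mice (1.54%) and for 308 that lay lower (2.59%). The count of called genes rested partly on single mice, being 26 without untreated mouse 4, 25 without fasted mouse 4, 33 without fasted mouse 5 and 42 without fasted mouse 2. Of the 63 genes, 20 remained called in each of the 10 fits that left out 1 mouse, and all 63 kept their sign. The calls also depended on which arrays entered the fit: 159 genes passed with only the 10 compared arrays and 19 with all 78 arrays of the series, which included 59 and 16 of the 63. Of the genes described most fully here, Txnip, Vldlr, Cd36, Cyp4a10, Nsdhl, Hsd3b5 and Cmah were among the 16. The fit of all 78 arrays gave no call for Cyp4a14 (adjusted p = 0.122), Angptl8 (0.147), Fdps (0.0544), Retsat (0.0555), Nudt7 (0.25) and Cyp2b13 (0.594). It also gave none for Ces3b (0.122), Acacb (0.0987), Krt23 (0.0745) and Cyp4a31 (0.0544). In the sections that follow, differences are fasted minus untreated on the log2 scale, with the standard error of the limma fit, and group levels are means with SD over 5 mice.

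Among the 4 called genes with the largest rise, 3 encode cytochrome P450 enzymes of the Cyp4a family (the other is Txnip), microsomal hydroxylases that attack the far end of a fatty acid chain. Cyp4a14 stood at 10.44, 11.18, 10.82, 9.92 and 11.24 in untreated mice 1 to 5 and at 11.65, 11.87, 11.86, 12.08 and 11.74 in fasted mice 1 to 5. Every fasted mouse was thus above every untreated mouse, and the fasted group was also the tighter one. The difference was 1.12 ± 0.19 (2.17-fold, adjusted p = 0.00417, limma). Cyp4a10 stood at 9.15, 9.94, 9.63, 9.24 and 9.59 in the untreated and at 10.51, 10.55, 10.76, 10.67 and 10.39 in the fasted mice, again without overlap. Cyp4a10 rose by 1.07 ± 0.22 (2.09-fold, adjusted p = 0.0131, limma), and Cyp4a31 rose by as much (1.07 ± 0.22, adjusted p = 0.0139). Cyp4a10 lost its call without untreated mouse 4 or fasted mouse 4 (highest adjusted p = 0.0646), and Cyp4a31 lost it without these mice or fasted mouse 5 (highest adjusted p = 0.0596). The members of this family are close copies, and sharing of signal between their probe sets was not tested.

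**Figure D1:**
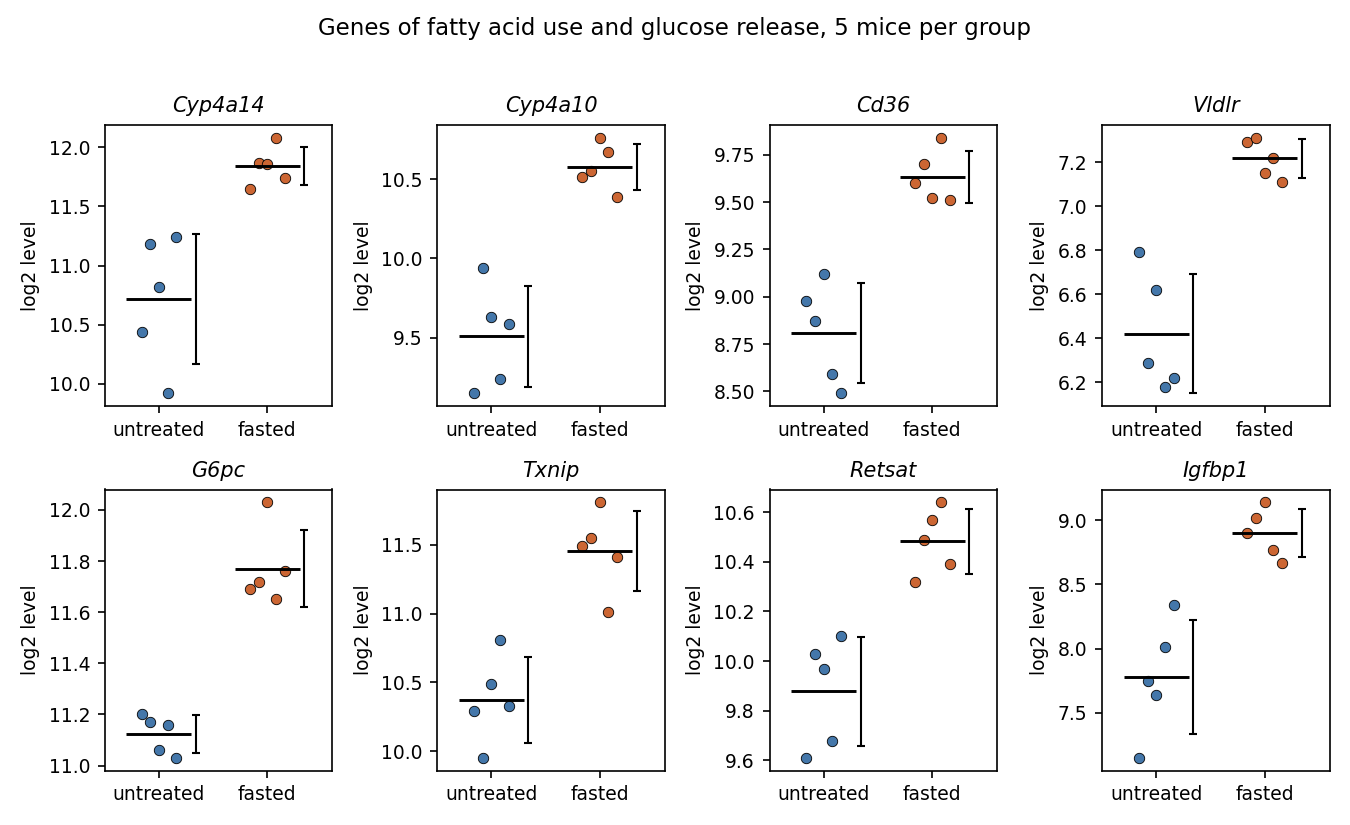
Log2 level of 8 genes in each of 5 untreated and 5 fasted livers. Points are mice, horizontal lines are group means and bars are SD, with a separate vertical axis for each gene that does not start at 0. No fasted mouse overlaps an untreated mouse in any of the 8 panels, and 7 of them, all but Igfbp1, passed the test.

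The remaining peroxisomal and microsomal enzymes moved less. Of 18 tested members, 3 rose and 1 fell, 16 had a positive difference, and the median was 0.18. Acaa1a, the peroxisomal thiolase, had means of 9.31 ± 0.11 without and 9.57 ± 0.07 with the fast (0.25 ± 0.06, adjusted p = 0.0572), and the fatty aldehyde dehydrogenase Aldh3a2 differed by 0.31 ± 0.10 (adjusted p = 0.18), both without overlap. The gene that fell was Nudt7, a peroxisomal hydrolase that splits coenzyme A. Its levels were 10.17, 10.19, 10.35, 10.42 and 9.67 in the untreated against 9.59, 9.65, 9.39, 9.52 and 9.62 in the fasted mice, so untreated mouse 5 lay close to the fasted group. Nudt7 fell by 0.60 on the log2 scale (SE 0.11, adjusted p = 0.00551, limma).

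For mitochondrial beta-oxidation, all 17 tested genes had a positive difference, with a median of 0.13, but only 1 passed the test. Under quantile normalization 16 of the 17 were positive, with a median of 0.14. The called gene was Acadm, the medium-chain acyl-CoA dehydrogenase, at 11.51, 11.71, 11.60, 11.47 and 11.70 in untreated and 11.80, 11.88, 11.92, 12.00 and 11.92 in fasted mice. It rose by 0.31 ± 0.07 (1.24-fold, adjusted p = 0.0274, limma), without overlap, and the call was lost in 7 of the 10 fits that left out 1 mouse (highest adjusted p = 0.126). Its long-chain relative Acadl was at 10.71 ± 0.06 in untreated and 10.94 ± 0.03 in fasted mice, also without overlap (0.23 ± 0.06, adjusted p = 0.0741). Cpt1a, which admits long-chain fatty acids to the mitochondrion, differed by 0.15 ± 0.08 and its groups overlapped (adjusted p = 0.57). As a whole the list lay between 10.89 and 11.08 in the untreated and between 11.06 and 11.17 in the fasted mice. Etfrf1, which regulates the electron transfer flavoprotein of this pathway, rose by 0.33 ± 0.08 (adjusted p = 0.0408), a call lost in 9 of the 10 fits that left out 1 mouse.

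Enzymes that attach coenzyme A to fatty acids or take it off had no called member among 15 tested. Of these, 6 were higher in all fasted mice and 2 lower, beside 1.54% and 2.59% of all tested genes. The thioesterases Acot2 (0.56 ± 0.15, adjusted p = 0.0829), Acot3 (0.65 ± 0.22, adjusted p = 0.247) and Acot4 (0.45 ± 0.15, adjusted p = 0.222) were among the 6, and so was Slc27a2, a very-long-chain acyl-CoA synthetase (0.24 ± 0.07, adjusted p = 0.0992). The list level was 9.42 to 9.46 in the untreated and 9.58 to 9.65 in the fasted mice. Each mouse thus lay within its own narrow band, with a gap between the groups.

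Among regulators and targets of PPAR-alpha, 2 of 18 tested genes rose, and none fell. Cd36, the fatty acid transporter of the plasma membrane, was at 8.98, 8.87, 9.12, 8.59 and 8.49 in untreated and at 9.60, 9.70, 9.52, 9.84 and 9.51 in fasted mice, with no overlap. Cd36 rose by 0.82 ± 0.17 (1.77-fold, adjusted p = 0.0155, limma), and lost its call without untreated mouse 4 or 5 or fasted mouse 4 (highest adjusted p = 0.0741). Retsat, which saturates retinol, had levels of 9.61, 10.03, 9.97, 9.68 and 10.10 without the fast and of 10.32, 10.49, 10.57, 10.64 and 10.39 with it. The fasted mice were all higher, by 0.61 ± 0.11 (adjusted p = 0.00566, limma). Ppara itself was at 10.46 ± 0.09 and 10.47 ± 0.07 (adjusted p = 0.984). Fgf21, the hepatic hormone of fasting, was at 6.08 ± 0.15 and 6.10 ± 0.17 (adjusted p = 0.988), and the lipid droplet coat gene Plin2 at 11.49 ± 0.17 and 11.45 ± 0.13 (adjusted p = 0.941). Angptl4 and Pdk4, both classical targets of the receptor, differed by 0.42 ± 0.14 and 0.38 ± 0.19 with overlapping groups (adjusted p = 0.234 and 0.57).

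Of the ketone body genes, 5 were tested, and Slc16a7, a monocarboxylate transporter that carries ketone bodies and lactate across membranes, rose by 0.43 ± 0.09 (adjusted p = 0.00977). Its levels were 10.14, 10.02, 10.17, 9.91 and 10.17 in the untreated and 10.39, 10.46, 10.56, 10.66 and 10.47 in the fasted mice, and these ranges did not touch. The call was lost without untreated mouse 4 or fasted mouse 4 (highest adjusted p = 0.0577). Lipid droplet and lipolysis genes gave 0 calls among 17 tested, but the lipid droplet proteins Hsd17b11 and Hsd17b13, which are outside that list, rose by 0.42 ± 0.10 (adjusted p = 0.0283) and 0.26 ± 0.06 (adjusted p = 0.0493). Their calls were lost in 7 and in all 10 of the fits that left out 1 mouse.

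The glucose-releasing enzyme G6pc, the catalytic subunit of glucose-6-phosphatase, was the only gluconeogenic gene among 15 tested that passed the test. It stood at 11.20, 11.17, 11.06, 11.16 and 11.03 in untreated mice and at 11.69, 11.72, 12.03, 11.65 and 11.76 in fasted mice. The untreated mice spanned a narrow range, and fasted mouse 3 was the highest of all. G6pc rose by 0.64 ± 0.12 (1.56-fold, adjusted p = 0.00566, limma), a call that was lost with all 78 arrays in the fit (adjusted p = 0.85). Pck1, phosphoenolpyruvate carboxykinase, was higher in every fasted mouse, at 12.64 ± 0.02 against 12.49 ± 0.06, but the difference of 0.14 ± 0.07 did not pass (adjusted p = 0.492). The coactivator Ppargc1a was at 7.31 ± 0.11 without the fast and at 7.60 ± 0.25 with it (adjusted p = 0.788), a difference of 0.29 that was 0.53 in its other probe set.

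In the list of glucagon, glucocorticoid and FOXO responses, 1 of 28 tested genes rose and none fell. That gene was Txnip, which encodes a thioredoxin-binding protein that restrains glucose uptake. Its levels were 10.29, 9.95, 10.49, 10.81 and 10.33 in the untreated and 11.49, 11.55, 11.81, 11.01 and 11.41 in the fasted mice. The closest pair was untreated mouse 4 and fasted mouse 4, and the groups did not overlap. Txnip rose by 1.08 ± 0.19 (2.11-fold, adjusted p = 0.00463, limma). Igfbp1, a binding protein for insulin-like growth factors that insulin represses, had a larger difference of 1.12 ± 0.30, from 7.78 ± 0.44 to 8.90 ± 0.19 without overlap, but its adjusted p was 0.0741. Igfbp1 passed with only the 10 compared arrays (adjusted p = 0.00305, limma), in the replicate block (0.0151), under quantile normalization and with array weights. It did not pass with all 78 arrays (0.364) or in any fit that left out 1 mouse. The insulin receptor substrate gene Irs2 was at 6.82 ± 0.13 and 6.96 ± 0.16 (adjusted p = 0.901). The promoter of Txnip is shown as the only 1 of the 21 available for this list to hold the FOXO-type motif GTAAACA. The motif was read on both strands in the 250 bases before the start. The list share of 4.76% is near the 3.54% of all 27025 genes with a promoter entry. In the xenobiotic and P450 list 5 of 21 promoters held the motif (23.8%). A match describes letters in a window and not a bound site. The window below spans 150 bases of RefSeq sequence on GRCm38.p6, chr3:96557807-96557956, plus strand, with the motif in capitals.
Txnip: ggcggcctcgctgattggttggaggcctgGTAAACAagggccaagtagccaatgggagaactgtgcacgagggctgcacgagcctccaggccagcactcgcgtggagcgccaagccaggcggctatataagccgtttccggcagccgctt

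Among the lipoprotein and lipase genes, 1 rose and 1 fell. The receptor for triglyceride-rich particles, Vldlr, stood at 6.79, 6.29, 6.62, 6.18 and 6.22 without and at 7.29, 7.31, 7.15, 7.22 and 7.11 with the fast, and rose by 0.80 ± 0.14 (1.74-fold, adjusted p = 0.00417, limma). Angptl8, a secreted inhibitor of lipoprotein lipase that is known to follow feeding, was at 9.09, 9.26, 9.28, 9.00 and 8.75 in the untreated and at 8.26, 8.22, 7.78, 8.20 and 8.15 in the fasted mice. It fell by 0.95 on the log2 scale (SE 0.17, adjusted p = 0.00462, limma). Neither gene had overlapping groups, and fasted mouse 3 was far below the other fasted mice for Angptl8. These were the only called genes among 21 tested of the list.

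Cholesterol synthesis was the list with the most called members. Of 22 tested genes, 5 fell and none rose, 14 were lower in every fasted mouse, and 21 had a negative difference, with a median of -0.35. Over all tested genes, 0.319% were called lower and 2.59% were lower in every fasted mouse. The same 21 genes were negative under quantile normalization and median centring. With only the 10 compared arrays in the fit 13 genes passed, and with all 78 arrays 1 did. Leaving out 1 mouse gave between 1 and 6 called genes, with 1 without untreated mouse 4 and 1 without fasted mouse 4. The mean level of the list was 9.01, 8.82, 8.98, 9.10 and 9.00 in the untreated and 8.66, 8.69, 8.42, 8.46 and 8.46 in the fasted mice, so that fasted mice 1 and 2 lay nearest to the untreated group.

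Following the pathway, Mvd makes isopentenyl diphosphate from mevalonate diphosphate, and Fdps joins the isoprenoid units to farnesyl diphosphate. Nsdhl, Sc5d and Dhcr7 act late, on the sterol ring. Fdps stood at 9.45, 9.19, 9.41, 9.67 and 9.37 in untreated and at 8.86, 8.91, 8.35, 8.13 and 8.28 in fasted mice. All fasted mice were lower, mice 1 and 2 by less than the others, and the fasted level was 0.532 times the untreated one (-0.91 ± 0.18, adjusted p = 0.00975, limma), or adjusted p = 0.0539 without fasted mouse 4. Nsdhl went from 8.50, 8.08, 8.24, 8.75 and 8.42 to 7.76, 7.74, 7.33, 7.38 and 7.37 (-0.88 ± 0.17, adjusted p = 0.00975), or adjusted p = 0.0512 without untreated mouse 4. Dhcr7, the last enzyme before cholesterol, went from 8.53 ± 0.21 to 7.93 ± 0.20 (-0.60 ± 0.13, adjusted p = 0.0175), and its call was lost without any 1 of 5 mice (highest adjusted p = 0.0853). Mvd went from 6.81 ± 0.09 to 6.33 ± 0.13 (-0.48 ± 0.10, adjusted p = 0.0131) and lost its call without untreated mouse 4 or fasted mouse 4 or 5 (highest adjusted p = 0.0677). Sc5d went from 11.14 ± 0.08 to 10.79 ± 0.10 (-0.35 ± 0.08, adjusted p = 0.0323), a call lost in 8 of the 10 fits. Erg28, a scaffold of the sterol demethylation enzymes that is outside the list, fell by 0.43 (SE 0.10, adjusted p = 0.0496) and lost its call in 8 of the 10 fits.

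Several enzymes with as large a difference did not pass the test in the 12-week fit. Squalene epoxidase, Sqle, was at 6.93, 6.67, 7.00, 7.40 and 7.17 in untreated and 6.24, 6.33, 5.60, 6.27 and 5.72 in fasted mice, with means of 7.03 ± 0.27 and 6.03 ± 0.34 (adjusted p = 0.105), and passed with only the 10 compared arrays in the fit (0.00363), in the replicate block (0.0128) and with array weights. Every fasted mouse was lower, and fasted mice 3 and 5 were lowest. Idi1, the isopentenyl diphosphate isomerase, differed by -0.93 ± 0.23 (adjusted p = 0.0576), and the lanosterol demethylase Cyp51 by -0.81 ± 0.20 (adjusted p = 0.0558), both without overlap. The same held for Hmgcs1, the cytosolic HMG-CoA synthase (-0.51 ± 0.14, adjusted p = 0.122), and for the SREBP anchor Insig1 (-0.43 ± 0.14, adjusted p = 0.213). Srebf2, the gene of the sterol-sensing SREBP, had untreated and fasted means of 8.03 ± 0.09 and 7.83 ± 0.08, without overlap (adjusted p = 0.286).

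**Figure D2:**
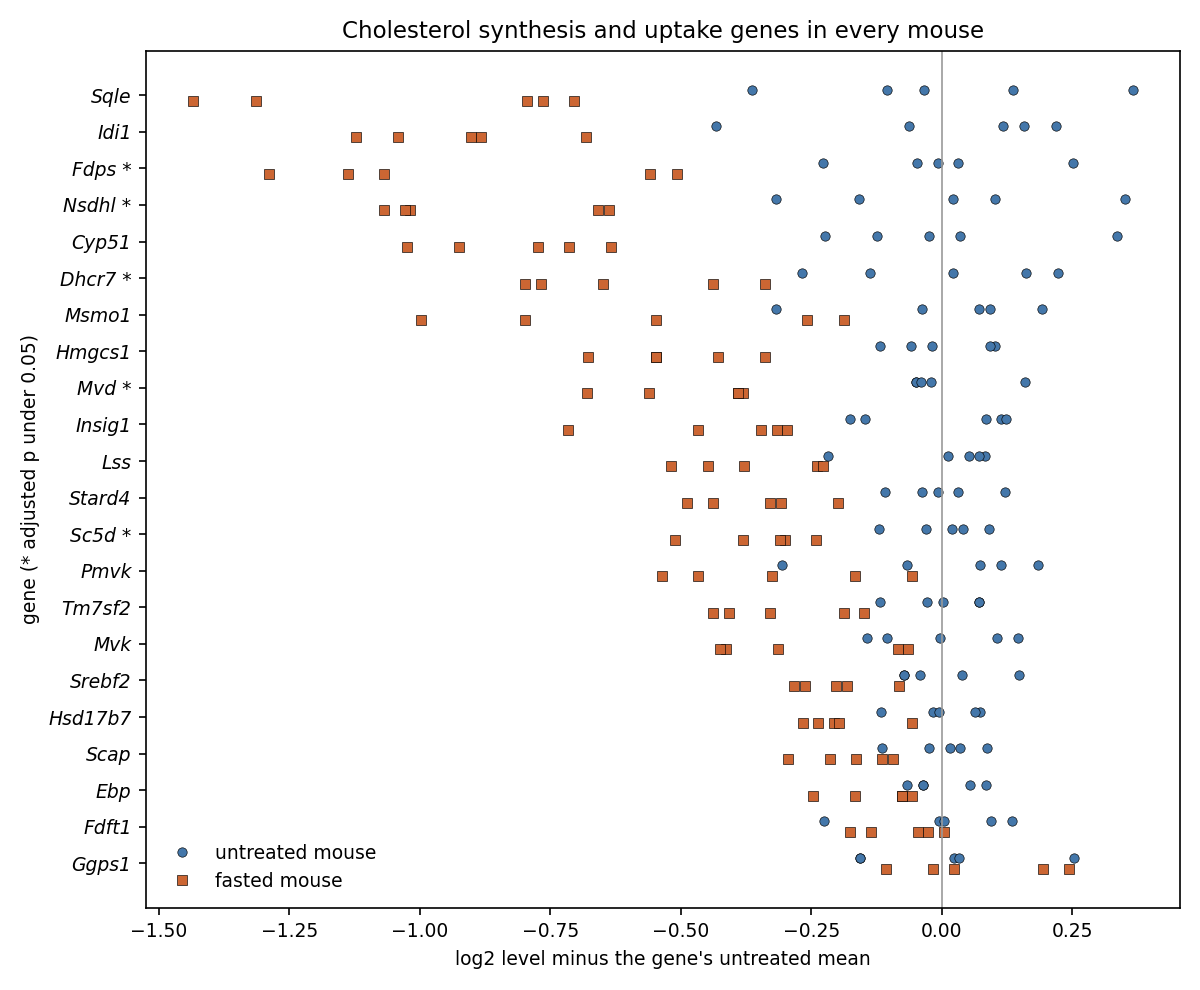
Log2 level of the 22 tested genes of cholesterol synthesis and uptake in every mouse, with each gene's untreated mean set to 0. Circles are the 5 untreated and squares the 5 fasted mice, and asterisks mark the 5 genes with an adjusted p under 0.05. The squares lie left of all circles for 14 genes, and Ggps1 at the bottom is the one gene with a positive difference.

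The promoters of 4 of the 5 called genes are shown because nearly all cholesterol genes hold a short box, although other lists hold it too. The pentamer CCAAT, searched on both strands in the 250 bases before the start, was present in 17 of the 18 list genes with a promoter entry (94.4%), against 37.5% of all 27025 genes and 39.2% of the 9506 tested genes with an entry. It was also common in lists without a called gene, in 88.2% of the endoplasmic reticulum chaperones, 85.7% of the cell cycle genes and 84.6% of the p53 targets with an entry. CCAAT is the box bound by NF-Y, a factor known to act beside SREBP. The sterol element TCACNCCAC, searched likewise, was found in 1 of the 18, Hmgcs1, and in 1.22% of all genes. The PPAR-type direct repeat of AGGTCA, both copies separated by any 1 base, searched likewise with up to 2 mismatches, was found in 2 of 15 promoters of mitochondrial oxidation, 0 of 11 of the peroxisomal list, 4 of 15 of the PPAR-alpha list and 3.72% of all genes. These matches describe letters in a window and not bound sites. The windows below are the 150 bases before the start in RefSeq sequence on GRCm38.p6, 5′ to 3′ along the gene, with CCAAT or its reverse complement ATTGG in capitals. Mvd lies on chr8:122443423-122443572 (minus strand), Nsdhl on chrX:72918371-72918520 (plus strand), Sc5d on chr9:42264301-42264450 (minus strand) and Dhcr7, at the one of its 3 starts that holds the box, on chr7:143830064-143830213 (plus strand).
Mvd: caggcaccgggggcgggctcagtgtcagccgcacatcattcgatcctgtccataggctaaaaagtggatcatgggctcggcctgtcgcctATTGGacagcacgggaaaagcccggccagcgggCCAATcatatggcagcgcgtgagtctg
Nsdhl: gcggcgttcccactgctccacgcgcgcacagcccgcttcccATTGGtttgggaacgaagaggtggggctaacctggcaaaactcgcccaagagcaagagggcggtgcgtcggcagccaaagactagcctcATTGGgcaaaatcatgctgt
Sc5d: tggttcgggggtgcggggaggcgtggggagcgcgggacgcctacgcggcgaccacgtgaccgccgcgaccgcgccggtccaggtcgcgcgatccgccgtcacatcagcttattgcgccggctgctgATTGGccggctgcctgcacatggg
Dhcr7: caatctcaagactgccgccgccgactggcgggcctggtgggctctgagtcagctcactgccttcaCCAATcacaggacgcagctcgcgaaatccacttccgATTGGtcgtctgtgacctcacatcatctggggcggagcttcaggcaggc

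Fatty acid and triglyceride synthesis leaned the same way, with 2 of 23 tested genes lower, none higher, 7 lower in every fasted mouse and a median of -0.26. The shares over all tested genes were 0.319% called lower and 2.59% lower in every fasted mouse. Acacb makes the malonyl-CoA that holds back fatty acid entry into mitochondria. It was at 8.66, 7.98, 8.30, 8.87 and 7.94 in the untreated and at 7.88, 7.74, 7.74, 7.26 and 7.55 in the fasted mice, and fell by 0.72 on the log2 scale (SE 0.15, adjusted p = 0.0175, limma). Untreated mice 1 and 4 were highest, and the call was lost without either of them or without fasted mouse 4 or 5 (highest adjusted p = 0.107). Mid1ip1, which activates acetyl-CoA carboxylase, fell by 0.54 (adjusted p = 0.0323), but its other probe set differed by -0.03, and the call was lost in 7 of the 10 fits that left out 1 mouse.

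The synthase Fasn had a wide spread among untreated mice, at 10.44, 9.25, 9.66, 10.08 and 9.22 against 9.16, 9.18, 9.05, 8.70 and 9.02 in the fasted mice (-0.71 ± 0.17, adjusted p = 0.0546). Untreated mice 2 and 5 were within 0.1 of the fasted group, and mice 1 and 4 far above it. The elongase Elovl6 was also highest in these mice, with 9.95 and 9.42 in untreated mice 1 and 4 and 8.31 and 8.48 in mice 2 and 5, and its groups overlapped (-0.39 ± 0.20, adjusted p = 0.585). The desaturase Scd1 differed by -0.83 ± 0.26 (adjusted p = 0.185) and malic enzyme Me1 by -0.35 ± 0.09 (adjusted p = 0.0656), both without overlap. With only the 10 compared arrays Scd1 and Me1 passed (adjusted p = 0.0178 and 0.0497, limma), and with all 78 arrays neither did (0.28 and 0.575). Srebf1, whose product drives these genes, was at 10.35 ± 0.08 and 10.20 ± 0.21 (adjusted p = 0.79). The glycolytic Pklr (-0.28 ± 0.12, adjusted p = 0.458) and the lipogenic Thrsp (-0.49 ± 0.27, adjusted p = 0.62) overlapped too. In the elongation and desaturation of polyunsaturated fatty acids, 0 of 8 genes passed, but Elovl1, Elovl5, Tecr and Fads1 were lower in every fasted mouse, and the list lay at 10.36 to 10.40 in untreated and 10.20 to 10.34 in fasted livers.

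**Figure D3:**
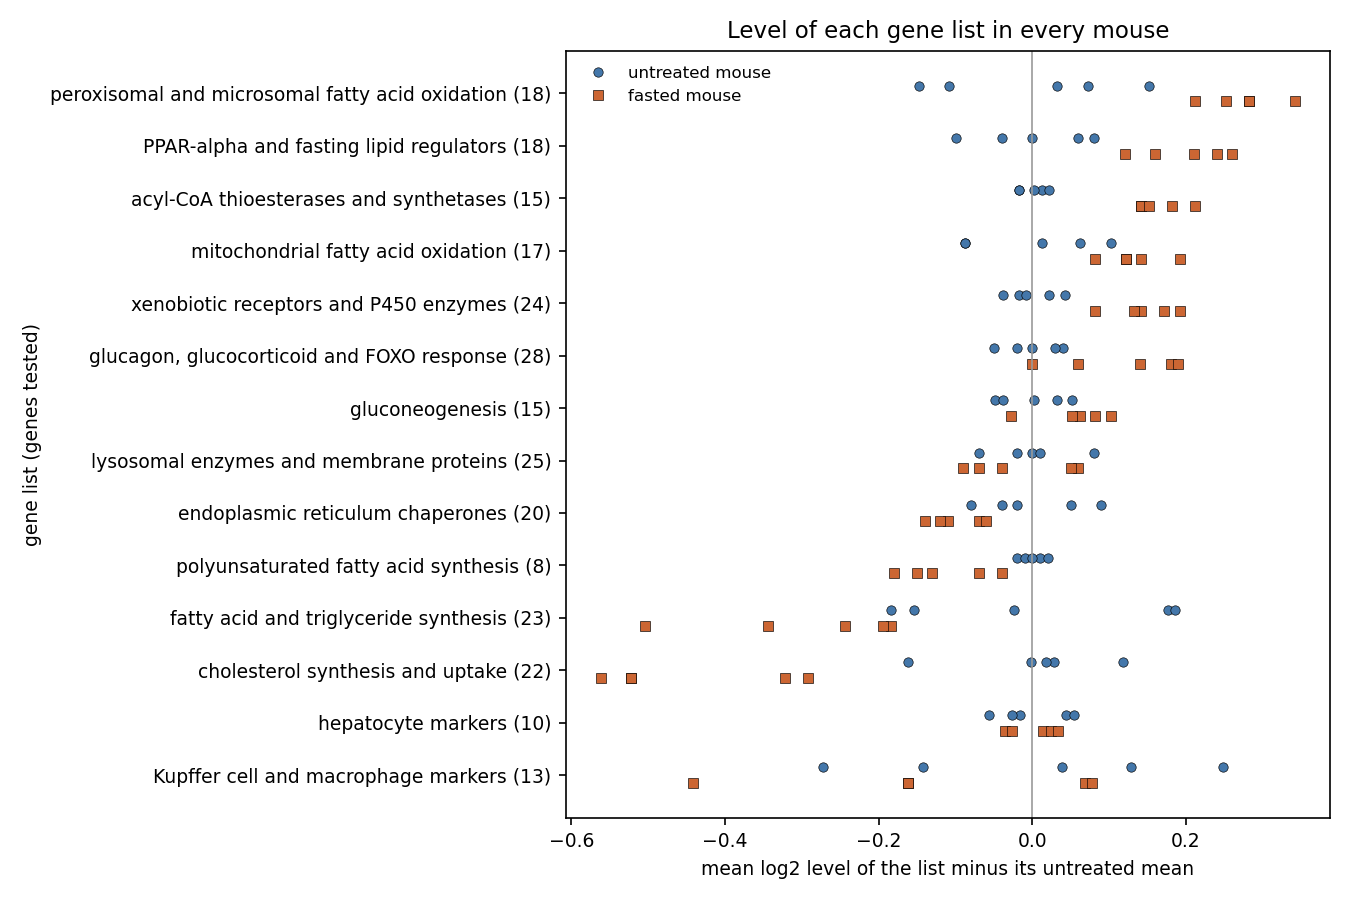
Mean log2 level of 14 gene lists in each mouse, relative to the untreated mean of the list, with the number of tested genes in brackets. Circles are untreated and squares fasted mice. Fasted and untreated mice separate fully for the peroxisomal, PPAR-alpha, acyl-CoA and P450 lists, which lie higher, and for the cholesterol and polyunsaturated lists, which lie lower, while hepatocyte markers overlap.

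The falls with the largest log2 difference were in Hsd3b5 and A1bg. Hsd3b5, a steroid-metabolising enzyme that is higher in male liver, was at 6.58, 8.29, 8.38, 8.75 and 8.08 in the untreated and at 6.61, 6.37, 6.17, 6.06 and 6.38 in the fasted mice. Untreated mouse 1 lay among the fasted mice and the other 4 well above them, and Hsd3b5 fell by 1.70 on the log2 scale (SE 0.27, adjusted p = 0.00212, limma). A1bg, a plasma glycoprotein, was at 6.85, 8.00, 7.59, 10.10 and 6.88 in the untreated and at 6.02, 5.76, 6.87, 5.06 and 6.56 in the fasted mice. A1bg fell by 1.83 (SE 0.39, adjusted p = 0.0164), with untreated mouse 4 far above the rest, and its call was lost without fasted mouse 2 or 4 (highest adjusted p = 0.0891). The carboxylesterase Ces3b went from 10.27 ± 0.31 to 9.17 ± 0.11 (-1.10 ± 0.20, adjusted p = 0.00566), without overlap. Its call was lost with all 78 arrays in the fit (adjusted p = 0.122, limma).

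Cmah, which converts one sialic acid to another, had the smallest adjusted p of all genes. It was at 8.96, 9.38, 9.03, 9.41 and 9.05 in the untreated and at 8.37, 8.24, 8.53, 8.31 and 8.63 in the fasted mice, a clear gap, and fell by 0.75 (SE 0.11, adjusted p = 0.00103, limma). Slc22a7, an organic anion transporter, fell by 0.73 (SE 0.13, adjusted p = 0.00566), the water channel Aqp8 by 0.63 (SE 0.12, adjusted p = 0.00888), Selenbp2 by 0.82 (SE 0.15, adjusted p = 0.0068), Keg1 by 0.76 (SE 0.13, adjusted p = 0.00313) and the P450 enzyme Cyp4f14 by 0.58 (SE 0.09, adjusted p = 0.00212). These 5 genes had no overlap between groups and kept their calls in all 10 fits that left out 1 mouse, but Aqp8 and Keg1 lost theirs with all 78 arrays in the fit (adjusted p = 0.659 and 0.16). Selenbp2 and Ces3b have close relatives, and sharing of signal with them was not tested. In the list of growth-hormone-pattern genes to which Hsd3b5 and A1bg belong, 12 were tested, 2 fell and Cyp2b13 rose.

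Xenobiotic receptors and P450 enzymes had 1 called gene among 24 tested and 5 that were higher in every fasted mouse (1.54% of all tested genes were). The called gene was Cyp2b13, at 11.31, 11.06, 11.24, 10.95 and 11.14 in untreated and 11.67, 11.68, 11.57, 11.65 and 11.79 in fasted mice, a rise of 0.53 ± 0.09 (adjusted p = 0.00417, limma) without overlap. Its relative Cyp2b10, the usual readout of the receptor CAR, was at 10.06 ± 0.11 and 10.49 ± 0.25 (adjusted p = 0.227). The bile salt exporter Abcc3 was the one called gene of 20 tested for bile acids, at 10.54 ± 0.15 and 10.91 ± 0.13 (0.37 ± 0.08, adjusted p = 0.0175). Abcc3 lost its call without untreated mouse 3 or 4 or fasted mouse 2 or 4 (highest adjusted p = 0.107). Cyp7a1, the rate-limiting enzyme of bile acid synthesis, was at 10.46 ± 0.16 and 10.24 ± 0.09 (adjusted p = 0.925). Among 21 glutathione and Nrf2 genes 1 was called, the glutathione transferase Gstm2, which fell by 0.57 (SE 0.12, adjusted p = 0.0162), a call lost without untreated mouse 4 or fasted mouse 4 or 5. Its close relative Gstm4, outside the list, fell by 0.40 (SE 0.08, adjusted p = 0.00977), and sharing of signal between them was not tested.

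Single members were called in 2 further lists. Citrate synthase, Cs, which feeds acetyl-CoA into the Krebs cycle, fell by 0.37 (SE 0.08, adjusted p = 0.0196) among 28 tested genes of the respiratory chain and its supply, a call lost in 5 of the 10 fits that left out 1 mouse (highest adjusted p = 0.115). Ulk2, a kinase that starts autophagy, fell by 0.24 (SE 0.06, adjusted p = 0.0487) among 30 autophagy and lysosome genes, and kept its call in 1 of the 10 fits that left out 1 mouse. Krt23, a keratin, was one of the larger rises, from 6.78, 6.64, 6.75, 6.23 and 6.49 to 7.54, 7.64, 7.37, 7.28 and 7.71. The groups did not overlap (0.93 ± 0.21, adjusted p = 0.0292), and the call was lost in 7 of the 10 fits.

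No member passed the test in 19 of the 34 pathway lists. These include amino acid breakdown (33 tested, median 0.055), urea cycle (9 tested, median 0.023), glucose uptake and glycolysis (23 tested, median -0.029), and the clock (18 tested, median -0.033). Nr1d1 and Bhlhe40, both parts of the clock, were lower in every fasted mouse, by -0.33 ± 0.13 and -0.28 ± 0.19 (adjusted p = 0.392 and 0.732), whereas Dbp, Per1 and Arntl overlapped (adjusted p = 0.919, 0.936 and 0.998). Endoplasmic reticulum chaperones had 0 of 20 called and 5 lower in every fasted mouse (2.59% of all tested genes were). Their median was -0.086, and Hspa5 was at 11.53 ± 0.06 and 11.49 ± 0.10 (adjusted p = 0.955, limma). In the growth hormone axis (16 tested, 0 called), Igf1 was at 10.85 ± 0.10 and 10.66 ± 0.11 (adjusted p = 0.345). The lysosomal enzymes (25 tested), the lysosomal egress and LXR genes (12 tested), heat shock (15 tested), integrated stress (23 tested), p53 targets (17 tested), ribosome biogenesis (23 tested), acute phase (26 tested), interferon response (17 tested) and immediate early genes (21 tested) gave 0 called genes each. For the cell cycle, 0 of 16 were called, but 15 of the differences were negative, with a median of -0.17 and a list level of 6.15 to 6.42 in untreated and 5.93 to 6.12 in fasted livers.

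Genes that mark the storage disease studied elsewhere in the series were among those without a call. Npc1 was at 10.54, 10.53, 10.47, 10.31 and 10.63 in the untreated and at 10.54, 10.62, 10.75, 10.53 and 10.59 in the fasted mice. Its partner in cholesterol export, Npc2, was at 8.59 ± 0.11 and 8.50 ± 0.16 (adjusted p = 0.854), the acid lipase Lipa at 10.83 ± 0.05 and 10.78 ± 0.08 (adjusted p = 0.939), the protease Ctsd at 10.96 ± 0.05 and 10.89 ± 0.09 (adjusted p = 0.918), and Lgals3, a lectin of activated macrophages, at 6.55 ± 0.23 and 6.51 ± 0.22 (adjusted p = 0.983).

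Among the 18 groups of the series, the fasted mice had the highest mean of Txnip (11.45), Krt23 (7.51) and Vldlr (7.22). The next groups were close for Vldlr, at 7.21 ± 0.30 in Npc1-/- mice of 1 week (n = 4), and further off for Krt23, at 6.77 ± 0.41 in Npc1+/+ mice of 1 week (n = 4). For Txnip the next group was the control oligonucleotide at 12 weeks, at 11.01 ± 0.29 (n = 5). The highest mean also lay in the fasted mice for Cers6, Cyp2b13, Cyp3a25, Etfrf1, Hyi and Slc15a4, and for Npc1 (10.60) and Ppara (10.47), which were not called. The fasted mice had the lowest mean of Sqle (6.03), Nsdhl (7.52), Mvd (6.33), Avpr1a, C8b, Cs and Elob. Other fasting genes were at least as high in mice that the labels do not call fasted. G6pc was at 11.82 ± 0.28 in Npc1+/+ mice of 11 weeks (n = 4) and 12.10 ± 0.25 under the control oligonucleotide (n = 5), above the 11.77 of the fasted mice. For Igfbp1 the untreated mice had the lowest mean of all 18 groups, and the fasted mice the fourth lowest.

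The fasting effect was also set against the effect of Npc1 loss, in 1 fit of all 78 arrays. The contrast of Npc1-/- with Npc1+/+ females at 11 weeks, 4 mice each of the BALB/cNctr-Npc1m1N/J line, shares no array with the fasting contrast. It called 5288 of 12748 genes (41.5%), and the 2 effects differed for 3814 (29.9%), limma in both cases. The 63 fasting genes are those of the 12-week fit, of which 16 were also called for fasting in the fit of all 78 arrays. Of these 63, 31 (49.2%) were called in the same direction in Npc1-/- mice, 12 (19%) in the opposite direction and 20 (31.7%) not at all. The difference of the effects was called for 36 of the 63 (57.1%). The 63 were picked for a fasting effect on arrays that also enter this difference, so a called difference was favoured beforehand. Of the 38 genes that fell with fasting, 23 were also lower in Npc1-/- mice (21.9% of all tested genes were), and of the 25 that rose, 8 were also higher (19.6% of all). Centring on the array median moved the median null effect of all genes from -0.017 to -0.104 and gave 32 genes in the same and 13 in the opposite direction.

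Of the 23 shared falls, 14 were deeper in Npc1-/- mice by the test of the difference and 0 deeper with fasting. Ces3b was lower there by -5.50 ± 0.33 on the log2 scale against -1.10 with fasting, Slc22a7 by -4.16 ± 0.17 against -0.73, Cmah by -3.34 ± 0.13 against -0.75, and Cyp4f14 by -2.63 ± 0.13 against -0.58. Each of these differences of effect passed the test, at adjusted p = 3.49e-13, 2.52e-20, 8.4e-20 and 9.89e-16. Cd36 rose in both settings, by 2.18 ± 0.20 in Npc1-/- mice against 0.82 (difference adjusted p = 3.9e-05). Cyp4a14 rose by 1.39 ± 0.34 in Npc1-/- mice, and its difference from the fasting effect was -0.27 ± 0.45 (adjusted p = 0.729).

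In 9 genes a rise with fasting stood against a fall in Npc1-/- mice. None of these 9 rises was called with all 78 arrays in the fit, which gave the null effects. Their adjusted p for fasting in that fit ran from 0.0555 (Retsat) to 0.85 (G6pc, limma). The 9 genes were picked by their opposite calls, so a called difference of the effects was largely set beforehand and adds little. G6pc had the lowest null effect, at -3.03 ± 0.40 (adjusted p of the difference from fasting 6.95e-08). Cyp2b13 stood at -1.91 ± 0.24 there (3.69e-09), Krt23 at -0.87 ± 0.26 (2.48e-05) and the epoxide hydrolase Ephx2 at -0.80 ± 0.10 (5.31e-11), and Retsat differed between the settings by 1.61 (9.16e-09). Acadm was lower by -0.25 ± 0.09 (difference adjusted p = 9.68e-05). Of the 17 mitochondrial oxidation genes, 16 were lower in Npc1-/- mice, with a median of -0.49, and for the same number the fasting effect lay above the null effect. Under quantile normalization these counts were 11 and 13. E-cadherin, Cdh1, went the other way. It fell by 0.45 with fasting, a fall not called with all 78 arrays in the fit (adjusted p = 0.147, limma). In Npc1-/- mice Cdh1 was higher by 1.50 ± 0.14 (difference adjusted p = 6.81e-14).

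The cholesterol genes called in each setting were lower, but they were only partly the same genes. Of 22 tested, 10 were lower in Npc1-/- mice and none higher, where 21.9% of all tested genes were lower. The 10 became 8 under quantile normalization and 12 under median centring. Of the 5 genes called with fasting, Nsdhl and Sc5d were also called lower in Npc1-/- mice. Fdps, Dhcr7 (adjusted p = 0.135, limma) and Mvd (adjusted p = 0.464) were not. For Fdps the null effect was -0.13 ± 0.24 (adjusted p = 0.715) and its difference from the fasting effect -0.78 (adjusted p = 0.064). Sqle differed between the settings, with a null effect of 0.73 ± 0.36 and a difference of -1.73 (adjusted p = 0.00313). Sc5d was lower by -1.48 ± 0.18 in Npc1-/- mice, more than with fasting (difference adjusted p = 0.000134).

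**Figure D4:**
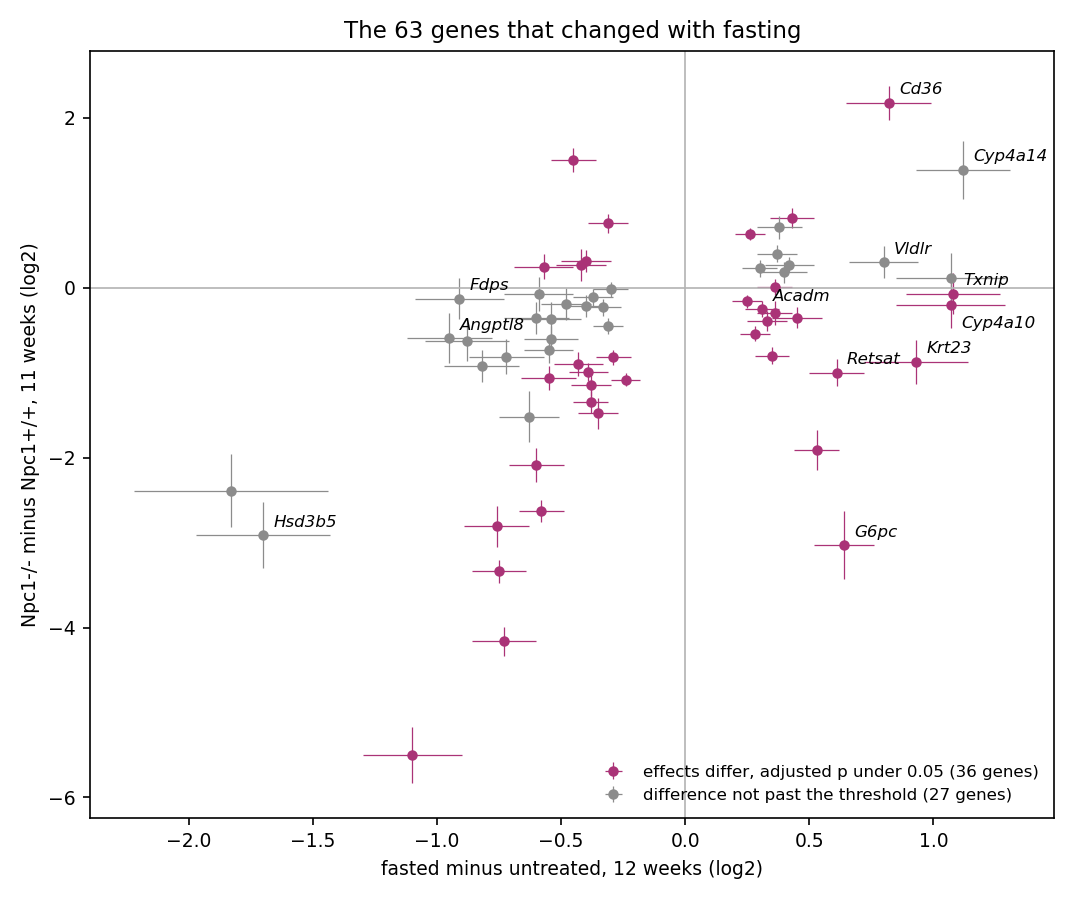
Fasting effect of the 63 called genes (horizontal axis, fasted minus untreated, log2) against the effect of Npc1 loss at 11 weeks (vertical axis, Npc1-/- minus Npc1+/+, log2). Points are genes and bars are standard errors, and the coloured points are the 36 genes whose effects differ. The 23 shared falls lie in the lower left, and G6pc, Retsat and Krt23 lie in the lower right.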

How the data were processed

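RNA of 78 mouse livers had been extracted with TRIzol and RNeasy columns, per the labels' protocols, and hybridised 1 array per mouse. The deposited table holds log2 expression values that the authors made for 35556 probe sets. The submitters' processing notes list RMA and Partek 6.5 but give neither a role nor an order for them, and raw intensities were not used here. Probe sets with 1 gene symbol (21789) gave 19938 genes, each represented by its brightest set. A gene was tested when at least 4 of the 30 arrays of the 12-week set exceeded the median of the whole table, 5.54.

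Groups were taken from the sample titles. The fit was limma 3.58.1 in R 4.3.3 (lmFit with 1 mean per group over the 12-week set, eBayes), two-sided, with Benjamini-Hochberg adjustment over all tested genes and a threshold of 0.05. The comparison with Npc1-/- mice used 1 fit of all 78 arrays. The labels call the samples biological replicates, and the number of mice limits the precision. The 34 pathway lists, the 12 marker lists and the genes to describe were chosen with earlier results of these data known. Named genes are the 10 largest non-overlapping called changes each way, up to 6 called members of each list, and a set of well-known fasting, lipid and lysosomal genes, 72 in all. Other called genes, and list members without a call, were named after their values were seen. Alternatives covered thresholds, filters, scaling, probe set choice, array weights, the arrays in the fit, a replicate block and single mice left out, and the leave-one-out fits of the Npc1 comparison and the list counts were added after seeing the data. The promoters come from the RefSeq table (GRCm38.p6), and the procedure was tested on simulated data.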

Additional observations from a re-analysis of the deposited data

Results flagged for a closer look

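Single mice stood far from the other 4 of their group for 12 of 204 gene and group pairs examined, measured as the gap to the nearest mouse relative to the range of the group. Chance alone flags about 1 in 20 groups. Untreated mouse 4 was the one apart for Amy1 (10.73, the others 10.93 to 11.01), Mvd (6.97, the others 6.76 to 6.79), Nsmf (9.24, the others 8.59 to 8.76) and the vitamin C transporter Slc23a1 (9.76, the others 9.45 to 9.52). Fasted mouse 3 was apart for Angptl8 (7.78, the others 8.15 to 8.26), Irs2 (7.23, the others 6.85 to 6.96), Nsmf (8.57, the others 8.35 to 8.39) and Socs2 (8.05, the others 6.99 to 7.29). Fasted mouse 4 was apart for H2-Q10 (9.37, the others 9.63 to 9.70) and Scd1 (10.88, the others 11.67 to 11.96). Untreated mouse 3 had a low Ppargc1a (7.13, the others 7.33 to 7.40), and untreated mouse 5 a high Socs2 (8.24, the others 7.28 to 7.43).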

How the results depend on the processing

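The 63 called genes became 26 at an adjusted p of 0.01, 7 with a 2-fold minimum, 357 with array weights, 159 with only the 10 compared arrays and 19 with all 78 arrays in the fit. The cause was not tested, apart from the stricter rule of the first pair. Without a filter 47 were called, with the stricter filter 81, with quantile normalization 94, with the mean of probe sets 59 and with an intensity trend and robust prior 82. Leaving out 1 mouse gave 25 to 69. The replicate block, fitted on the 10 arrays, called 59 genes, of which 36 were among the 63. Replicate numbers did not pair the mice, since same-numbered mice had deviations correlated at -0.22 to -0.02 and 0 of 10 correlated best with their own number. The difference from the Npc1-/- effect was called for 2774 to 4326 genes under other thresholds, filters, scalings and fits (3814 as reported) and for 3446 to 3731 with 1 mouse left out. Median centring moved its split from 1797 above and 2017 below to 2852 and 1474. The 63 called genes kept their sign under all settings, whereas uncalled genes with differences near 0 (Arntl, Fgf21, Ppara, Lgals3, Mt1 and Mt2) changed sign under some.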
